A study of Mus musculus with 27 samples.

Results

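The 10 germline and meiosis genes described here are *Stra8*, *Dazl*, *Ddx4*, *Mael*, *Sycp1*, *Sycp3*, *Hormad1*, *Tdrd12*, *Piwil2* and *Khdc3*, which were matched by symbol and are 10 of the 48795 genes listed in each library. They were chosen because *Stra8* and *Khdc3* fall steeply after the ESC and EpiSC stages, so the levels in those stages against later ones are given as a description, with no test. RNA was sequenced in 27 libraries, 3 for each of 9 groups of mouse cells differentiated toward gonadal cells, and all groups came from 1 XY clone (clone 7, strain F1:C57BL/6 x CBA) that carries the Tesco-CFP reporter, whose core enhancer of *Sox9* marks Sertoli cells, and the R26-rtTA allele. With 1 clone, differences between clones or genotypes could not be measured. The study describes the 3 libraries of a group as biological replicates, and since all come from that clone, p-values measure the spread between its cultures. Library depth, as the sum of expected counts, ran from 35923040 to 84876603.

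ESC are the embryonic stem cells. They were kept with leukemia inhibitory factor (LIF) and inhibitors of MEK and GSK3, and were passaged before differentiation in serum replacement with LIF (1000 U/ml), and the sources used here do not say from which of these cultures the RNA was taken. EpiSC, primed cells like those of the epiblast, had been cultured for 60 h with Activin A at 20 ng/ml, the growth factor bFGF at 12 ng/ml and KSR, a serum replacement, at 1%. M cells, at the mesoderm step, had then spent 36 h with bFGF (20 ng/ml), BMP4 (10 ng/ml) and the phosphatidylinositol kinase inhibitor LY294002 (10 µM). The IM1 to IM5 conditions, for intermediate mesoderm, lasted 3.5 days and shared bFGF (5 ng/ml) and BMP4 (20 ng/ml). IM1 had nothing else. All but IM1 received retinoic acid (100 nM). IM2 also received Activin A (10 ng/ml), IM4 received CHIR99021 (0.3 µM), a GSK3 inhibitor that activates WNT signaling, and IM5 received both. The iSLC (induced Sertoli-like cells) were IM3 cells exposed for 24 h to lentiviruses carrying doxycycline-inducible *Nr5a1* and *Dmrt1*, kept in a Sertoli medium with doxycycline (2 µg/ml) and Activin A (50 ng/ml), and sorted for CFP 4 days after doxycycline was added. The paper also lists the growth factors EGF and FGF9, the hormones FSH and testosterone, and prostaglandin D2 for the Sertoli medium. It lists no retinoic acid, bFGF or BMP4 there, all of which IM3 had received. Transgenes, added factors, loss of retinoic acid, time and sort therefore cannot be told apart in iSLC.

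Germ cells are set aside early in the embryo from pluripotent cells, and they later enter meiosis, the division that makes eggs and sperm. In the ovary retinoic acid induces *Stra8*, whose protein switches on the meiotic program, and the chromosomes are then held in pairs by the synaptonemal complex. The piRNA pathway, in which Piwi proteins loaded with small RNAs silence transposons, protects the genome of these cells. In somatic cells many germline promoters are kept silent by DNA methylation and by a variant polycomb complex that holds *Mga*, *Max*, *L3mbtl2* and *E2f6*. Several such genes are known to be transcribed in mouse ESC cultures without the cells being germ cells.

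The labels were set against marker lists. Summed over 3 general pluripotency genes (*Pou5f1*, *Sox2*, *Nanog*), TPM (a level scaled per transcript length and library) lay between 1839 and 2249 in the ESC and EpiSC libraries, at 209.85 to 217.84 in M and at no more than 55.9 in any IM or iSLC library. The sum of 4 early mesoderm genes was highest in M (741.4 to 805.8 TPM). The sum over 5 Sertoli genes was lower in iSLC than in IM3 (30.5 to 34.0 and 81.1 to 91.0 TPM), of which 1 rose (*Dhh*) and 2 fell (*Cst9* and *Cyp26b1*). Most of the gap came from *Cyp26b1* (39.8 mean TPM in IM3, 3.14 in iSLC), which is also on the retinoic acid response list. *Sox9* stood at 24.8 ± 1.6 TPM in iSLC and 40.0 ± 5.51 TPM in IM3 and *Amh* at 0.56 ± 0.0781 and 0.44 ± 0.12 TPM, and neither was called. Of 7 spermatid genes the sum stayed at or under 0.99 TPM in every library. The sum of 6 primordial germ cell genes was 191.5 to 198.0 TPM in ESC, 186.4 to 192.0 in EpiSC, 36.1 to 40.7 in M and at most 25.5 in IM and iSLC libraries. That of 6 oocyte genes was 16.7 to 20.3 TPM in ESC, 11.2 to 12.6 in EpiSC and at most 2.02 later, with 2 of the 6 at 3 counts or fewer in every ESC library and 3 in every EpiSC library. Genes of adult red blood cells, a cell type the labels do not name, summed to 11.7 to 91.0 TPM in ESC, 42.4 to 79.97 in M, 21.3 to 74.4 in IM3 and 30.8 to 72.1 in IM4, and to at most 4.54 in the other groups.

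The promoters of 9 of the 10 genes were found among the RefSeq windows (GRCm38.p6), which span 250 bases before to 50 bases after a start site, and *Piwil2* was not matched. They were searched on both strands for CACGTG, the E-box that *Max* dimers bind, for TCCCGC, a core of E2F sites, and for AGGTCA and GGGTCA, units that retinoic acid receptors read in pairs. No searched motif overlapped another in the windows printed. The 5 windows below are shown, down to base 30 after the start, because they belong to the genes on which the results turn (*Stra8*, *Sycp1*, *Ddx4*, *Khdc3*) and to *Hormad1*, the gene with the sharpest drop in level from EpiSC to M apart from *Khdc3*. Capitals mark CACGTG and TCCCGC or its reverse complement GCGGGA, and in *Stra8* AGGTCA, while other matches are left in lower case.

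Stra8, chr6:34920698-34920977, plus strand: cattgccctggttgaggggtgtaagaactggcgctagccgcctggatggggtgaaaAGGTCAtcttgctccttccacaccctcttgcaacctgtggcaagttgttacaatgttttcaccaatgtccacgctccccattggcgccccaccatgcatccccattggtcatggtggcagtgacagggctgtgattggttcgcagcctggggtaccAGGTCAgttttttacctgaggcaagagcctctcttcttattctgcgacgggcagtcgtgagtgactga
Sycp1, chr3:102936071-102936350, minus strand: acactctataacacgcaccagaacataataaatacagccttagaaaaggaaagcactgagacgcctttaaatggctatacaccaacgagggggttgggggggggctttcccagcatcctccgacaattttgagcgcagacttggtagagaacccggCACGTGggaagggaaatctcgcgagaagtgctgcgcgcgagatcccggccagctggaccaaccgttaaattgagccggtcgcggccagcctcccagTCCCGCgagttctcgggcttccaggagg
Ddx4, chr13:112652281-112652560, minus strand: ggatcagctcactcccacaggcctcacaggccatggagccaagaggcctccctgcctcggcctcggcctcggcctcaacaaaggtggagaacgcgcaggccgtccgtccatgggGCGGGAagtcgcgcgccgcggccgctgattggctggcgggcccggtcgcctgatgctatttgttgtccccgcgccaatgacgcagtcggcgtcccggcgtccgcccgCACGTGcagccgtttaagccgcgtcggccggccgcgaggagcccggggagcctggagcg
Hormad1, chr3:95559427-95559706, plus strand: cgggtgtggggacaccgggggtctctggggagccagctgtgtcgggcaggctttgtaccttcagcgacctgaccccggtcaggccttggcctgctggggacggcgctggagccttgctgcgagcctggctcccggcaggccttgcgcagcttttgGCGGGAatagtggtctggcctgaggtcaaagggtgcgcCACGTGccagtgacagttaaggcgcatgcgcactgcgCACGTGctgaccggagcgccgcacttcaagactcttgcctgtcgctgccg
Khdc3, chr9:73102148-73102427, plus strand: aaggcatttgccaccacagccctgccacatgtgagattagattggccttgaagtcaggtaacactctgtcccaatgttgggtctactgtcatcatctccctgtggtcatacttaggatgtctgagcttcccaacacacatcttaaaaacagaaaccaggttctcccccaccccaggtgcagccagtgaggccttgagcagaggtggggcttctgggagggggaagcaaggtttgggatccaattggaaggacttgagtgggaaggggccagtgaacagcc

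Of the 9 genes, 5 (*Ddx4*, *Mael*, *Sycp1*, *Sycp3* and *Hormad1*) held both CACGTG and TCCCGC in the window. Over 27025 promoters of the same length, CACGTG was found in 7.24%, TCCCGC in 20.0% and both in 2.05%, or both in 4.79% of the 9857 promoters with a CpG observed over expected ratio of at least 0.6. Among the 5, that ratio was 0.87 in *Sycp1*, 0.98 in *Ddx4*, 0.78 in *Mael*, 0.67 in *Sycp3* and 0.71 in *Hormad1*. The *Stra8* window held AGGTCA at 194 and at 38 bases before the start, while 16.0% of all promoters held this motif and 1.74% held it 2 or more times. *Sycp3* and *Hormad1* held it as well, at 1 place each, and *Hormad1* held GGGTCA, found in 13.5% of promoters. The *Khdc3* window had no CpG, which was true of 5.78% of promoters. These are matches of letters, and binding was not measured.

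ESC held the highest mean level of 8 of the 10 genes, and EpiSC that of the other two, *Ddx4* and *Sycp3*. Per length, ESC levels ran from 67.7 ± 0.598 TPM (SD, n = 3) for *Stra8* through *Hormad1*, *Tdrd12*, *Khdc3*, *Sycp1*, *Ddx4*, *Mael*, *Piwil2* and *Sycp3* to 7.32 TPM for *Dazl*. In EpiSC the order was another one. *Tdrd12* led with 19.45 TPM, and *Khdc3* and *Stra8*, which were high in ESC, came last, *Stra8* with 0.617 ± 0.0493 TPM. In M, *Ddx4* led with 1.52 ± 0.0755 TPM. In IM1 no gene was above a mean of 0.36 TPM (*Piwil2*), in each of IM2 to IM5 *Stra8* led with 0.473 to 0.863 TPM, and in iSLC *Sycp1* led with 2.32 TPM.

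**Figure D1:**
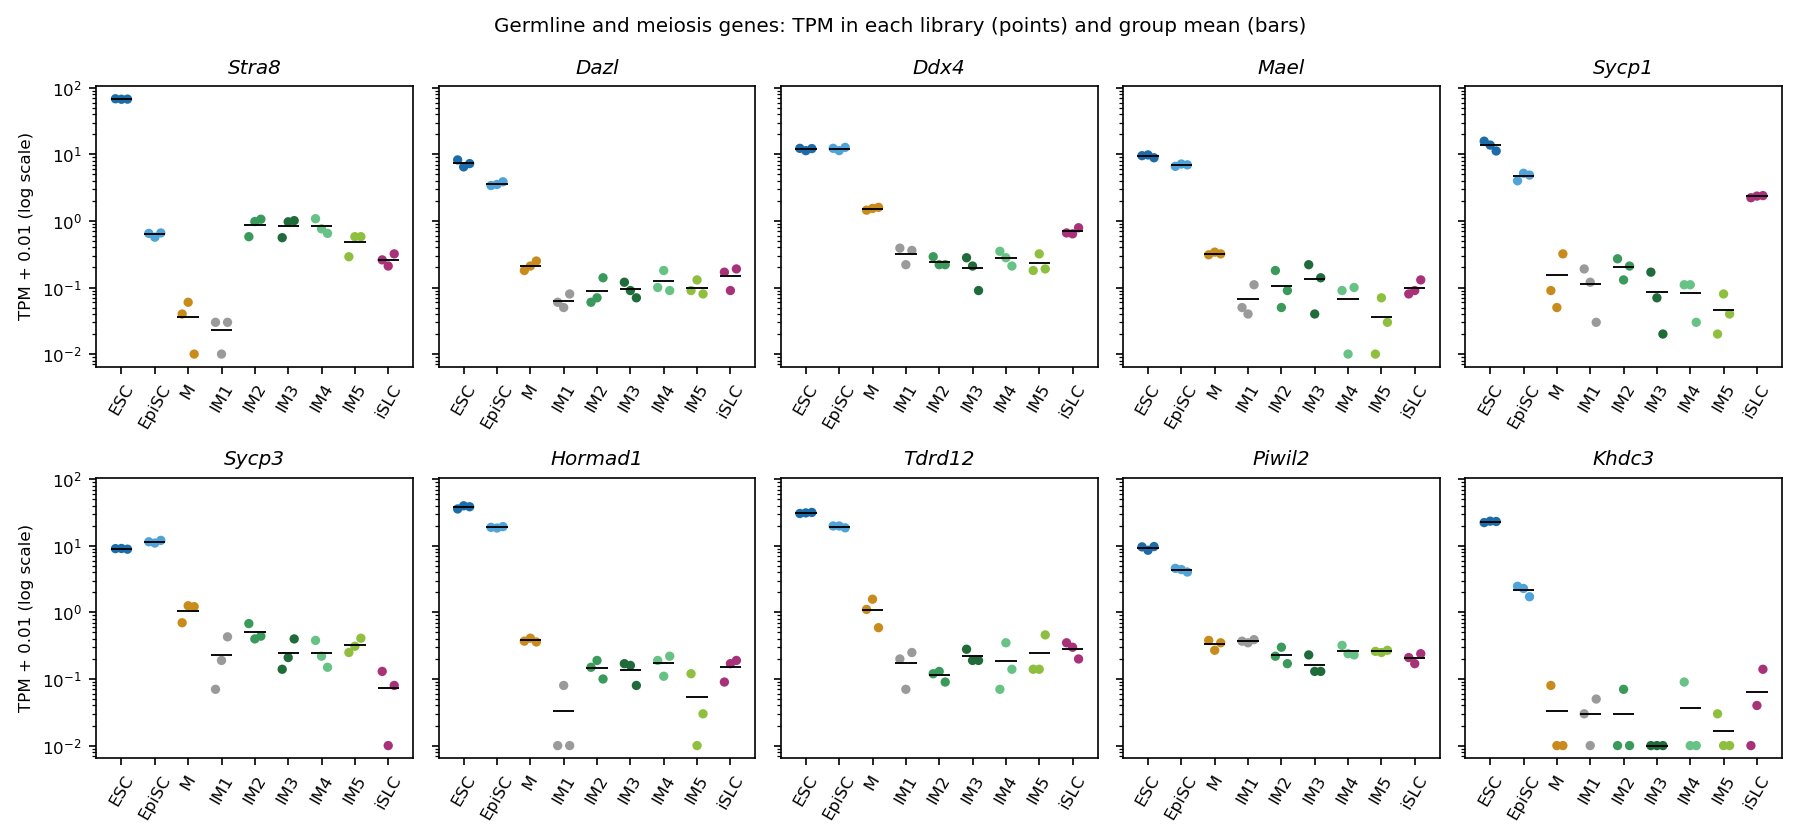
TPM plus 0.01 on a log axis for each of the 10 genes in the 9 groups, with a point per library and a bar at the group mean. ESC and EpiSC libraries lie above all later ones for 9 genes, the exception being Stra8, and Sycp1 in iSLC (2.22 to 2.39 TPM) stands above its IM levels.

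For 9 of the 10 genes every ESC and EpiSC library was above every later library, which was also so for 14.2% of the 14971 genes with a mean of at least 1 TPM in ESC or EpiSC. Since the genes were picked on this contrast, nothing is read from the count. *Stra8* was the exception, as its lowest EpiSC library (0.56 TPM) was under its highest later one (1.07 TPM, in IM4). The step from EpiSC to M, part of the same contrast, left a median of 5.06% of the EpiSC level over the 10 genes. Over all those genes the median was 99.5%, and for the same reason nothing is read from this gap. *Khdc3* kept 1.09%, *Hormad1* 1.95%, *Sycp1* 3.06%, *Stra8* 4.32%, *Mael* 4.55%, *Tdrd12* 5.57%, *Dazl* 5.66%, *Piwil2* 7.46%, *Sycp3* 9.11% and *Ddx4* 12.5%. The pluripotency genes *Pou5f1* (10.8%), *Sox2* (10.8%) and *Nanog* (16.8%), and *Dppa3* (10.3%), a gene of primordial germ cells and ESC, kept shares near that of *Ddx4*. In bulk RNA, fewer cells that express a gene and less of its RNA per cell cannot be told apart.

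*Khdc3* encodes an RNA-binding protein of the subcortical maternal complex of the egg and is also known from ESC. Its expected counts, RSEM's estimate of the fragments of a gene, were 751, 1445 and 1184 in ESC and 154, 134 and 121 in EpiSC, or 22.3, 23.5 and 23.2 against 2.46, 2.28 and 1.71 TPM. The groups did not overlap, and the mean TPM was 10.7 times as high in ESC. In all M and IM libraries the count was 3 or less, which is the limit that a count of 0 allows and was taken as not detectable at this depth. In IM3 it was 0 in each library, so ESC was at least 331-fold higher by normalized count, with the floor of 3 counts taken per library. In iSLC the counts were 0, 1 and 7. The exons of *Khdc3* lie to 38.5% within those of a gene on the same strand, *Gm20509*, between which reads could be split. *Gm20509* was given a mean of 0.00667 TPM in IM1 and 0.0 TPM in the other groups.

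*Stra8* fell in steps. Its expected counts were 1739, 3177 and 2599 in ESC (68.3, 67.2 and 67.5 TPM) and 34, 30 and 37 in EpiSC (0.64, 0.56 and 0.65 TPM), so that the mean TPM was 110.0 times as high in ESC. In M the counts were 1, 2 and 0, and in IM1 they were 1, 0 and 1, all within the floor. ESC over M gave a ratio of normalized counts of 2690, with a 95% counting interval of 921 to 13100.

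The first tested question was which of the other 8 genes differ between EpiSC and ESC. A gene was called changed at an adjusted p of at most 0.01 and a fitted fold of at least 2. In EpiSC against ESC 2 of the 8 fell and 0 rose, while 10.3% of the 20839 genes tested fell and 8.1% rose (18.4% in either direction). The median fitted log2 fold change was -0.81 over the 8 genes and 0.00 over all genes (-0.00258). All 10 genes passed the low-count filter, which a gene can do through ESC alone. *Sycp1*, the filament that joins paired chromosomes, fell by 1.28 on the log2 scale (SE 0.134, edgeR adjusted p = 6.56e-09), from 15.8, 13.8 and 11.2 TPM in ESC to 4.00, 5.19 and 4.87 TPM in EpiSC. *Piwil2*, a Piwi protein that binds piRNAs, fell by 1.06 (SE 0.11, edgeR adjusted p = 4.54e-09), from 9.64, 8.57 and 9.75 TPM to 4.58, 4.39 and 4.03 TPM. In both genes the groups did not overlap.

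*Dazl*, an RNA-binding protein that prepares germ cells for meiosis, missed the call by its fold alone, with a log2 fold change of -0.98 (SE 0.153, edgeR adjusted p = 4.37e-06). It went from 6.47 to 8.24 TPM in ESC to 3.39 to 3.86 in EpiSC, and it was called with DESeq2's size factors (-1.02), without ESC replicate 2 (-1.02) and without EpiSC replicate 3 (-1.03). *Hormad1*, a protein of the meiotic chromosome axis, also missed by fold (-0.96, SE 0.136, edgeR adjusted p = 1.03e-06), with 35.8 to 39.9 against 18.5 to 19.4 TPM, and was called without ESC replicate 1 (-1.03). *Tdrd12*, a Tudor domain helicase of piRNA production, had a smaller difference in the same direction (-0.66, SE 0.131, edgeR adjusted p = 0.000101). *Mael*, which acts with Piwi proteins in transposon silencing (-0.40, SE 0.199), *Sycp3* of the chromosome axis (0.42, SE 0.224) and the RNA helicase *Ddx4* (0.07, SE 0.127) did not pass, with edgeR adjusted p of 0.0833, 0.107 and 0.68. *Ddx4* thus stood at 11.4 to 12.3 TPM in ESC and 11.4 to 12.7 TPM in EpiSC, and the libraries overlapped. The exons of *Sycp3* lie to 52.2% within *Chpt1* on the other strand, and since the strand setting of the counting is not given in the sources used here, its values are uncertain. The red blood cell sum differed between these groups (11.7 to 91.0 TPM in ESC, 1.57 to 2.31 in EpiSC, 5 of 6 genes fell), as did that of 6 genes of 2-cell-like cells (26.4 to 30.04 and 0.48 to 0.75 TPM, 6 of 6 fell), a rare state in ESC cultures. Their part in the differences was not tested.

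Of 72 genes in 6 wider germline lists, which include the 10, 63 were tested. In EpiSC 6 rose and 15 fell, with a median log2 fold change of -0.37. The falls and the median hold *Stra8* and *Khdc3*, which were picked for their fall and lend no support here. Of all genes tested, 8.1% rose and 10.3% fell. *Tdrd5* of the piRNA pathway rose by 2.35 (5.49 to 25.2 mean TPM), *Dnd1* of germ cell survival by 1.79 (7.17 to 24.4 mean TPM) and the cohesin *Rad21l* by 1.66 from a low level (6 to 13 counts in ESC, 26 to 50 in EpiSC). The largest fall outside the 10 genes was that of *Prdm14*, a regulator of germ cell specification and naive pluripotency, by 3.74 (12.7 to 0.92 mean TPM). By list, 3 of 4 tested genes of the subcortical maternal complex fell and 0 rose, a count that holds the picked *Khdc3*. Of 18 piRNA genes 6 fell and 1 rose. Of the 11 genes of the polycomb complex, 0 were called in either direction by edgeR or DESeq2, with 9 at an unadjusted p under 0.05 and log2 fold changes between -0.65 and 0.67. *Mga* (67.3 ± 6.99 and 61.6 ± 1.15 TPM) and *Max* (74.8 and 63.7 TPM), for example, were well detected in both groups.

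The next comparison asked what retinoic acid does when it is the only addition, in IM3 against IM1. *Stra8* rose, with counts of 22, 25 and 27 in IM3 (0.55, 0.96 and 1.00 TPM) and 1, 0 and 1 in IM1 (0.02, 0.00 and 0.02 TPM). The groups did not overlap, and the fitted log2 fold change was 5.62 (SE 0.555, edgeR adjusted p = 3.11e-09). As IM1 held 2 counts in all against 74 in IM3, the ratio of normalized counts was 60.1 with a 95% counting interval of 16.1 to 506. The level reached was low, 0.837 ± 0.249 TPM (SD, n = 3), or 92.9 times lower than in ESC by normalized count (95% counting interval 73.9 to 118). The other conditions with retinoic acid stood in the same range. Their ratios to IM1 were 56.5 for IM2 (15.2 to 474), 52.9 for IM4 (14.2 to 445) and 34.8 for IM5 (9.24 to 294), and all of these share the IM1 libraries.

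**Figure D2:**
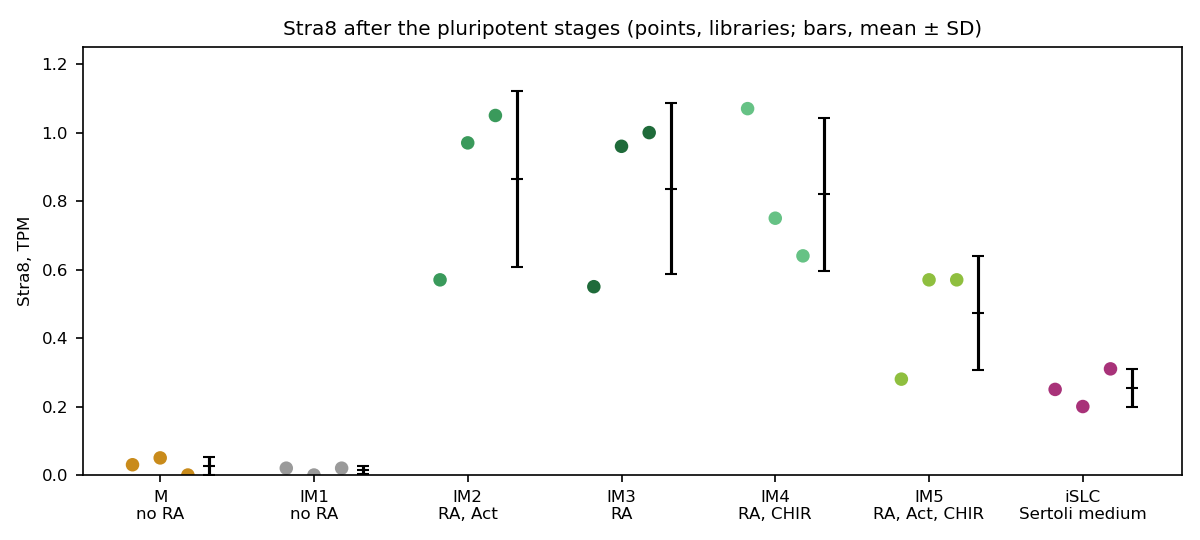
Stra8 in TPM in M, the 5 IM conditions and iSLC, with a point per library and the mean with SD beside it, and the additions to the medium written under each group (RA, retinoic acid; Act, Activin A; CHIR, CHIR99021). M and IM1 libraries reach at most 0.05 TPM, IM2 to IM5 libraries lie between 0.28 and 1.07 TPM and iSLC libraries between 0.20 and 0.31 TPM.

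In this comparison 1 of the 10 genes rose and 1 fell, while 5.17% of all genes rose and 6.81% fell (12% in either direction). The gene that fell was *Piwil2*, by 1.23 on the log2 scale (SE 0.2, edgeR adjusted p = 1.11e-05), from 0.36, 0.34 and 0.38 TPM in IM1 to 0.22, 0.12 and 0.12 in IM3, with no overlap. *Hormad1* had 0, 4 and 0 counts in IM1 and 6, 4 and 2 in IM3, which did not pass (log2 fold change 2.16, SE 0.793, edgeR adjusted p = 0.0249). It passed without IM1 replicate 2, as did *Ddx4* (28 counts in that library, 42 and 41 in the others), and *Ddx4* passed also without IM3 replicate 1. *Dazl*, *Mael*, *Sycp1*, *Sycp3*, *Tdrd12* and *Khdc3* did not pass either, each with at most 18 counts in any library of both groups.

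Retinoic acid response genes moved in the same comparison. Of 7 listed, 5 rose and 0 fell, among them the receptor *Rarb* (0.843 to 46.4 mean TPM) and the retinoic acid degrading enzyme *Cyp26b1* (1.54 to 39.8 mean TPM). Of 7 tested genes of meiotic entry, 3 rose and 0 fell, with a median log2 fold change of 0.73 against 0.00 over all genes (0). These were *Stra8*, the meiotic cohesin *Rec8*, by 1.96 (1.71 ± 0.372 to 7.28 ± 1.89 TPM), and *Gm4969*, the partner of *Stra8* that is also called Meiosin, with 0.443 ± 0.11 and 1.46 ± 0.211 TPM. *Mov10l1*, a helicase of piRNA production, rose by 2.28 at 7 to 33 counts in IM3, and without IM3 replicate 1 it was no longer called (1.67). Of 9 tested genes of germ cell specification 6 fell and 0 rose, with *Prdm14* down by 3.41 (28 to 46 counts in IM1, 1 to 3 in IM3). *Spo11*, which cuts DNA to start recombination, fell by 2.72 (22 to 30 counts in IM1, 1 to 3 in IM3), and *Tdrd7* fell by 1.92 (46.4 to 13.4 mean TPM). In all, 7 of the 63 germline genes rose and 9 fell, while 5.17% of all genes rose and 6.81% fell.

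Markers of earlier stages fell in this comparison, 3 of 3 general pluripotency genes (sums of 42.9 to 46.8 TPM in IM1 and 9.61 to 12.6 in IM3), 3 of 4 early mesoderm genes and 2 of 4 primed epiblast genes, and 5 of 6 genes of the primordial germ cell list, all of which are also in that of germ cell specification, fell. Red blood cell genes rose, 6 of 6, from sums of 3.06 to 4.54 TPM in IM1 to 21.3 to 74.4 in IM3. IM2, which had retinoic acid with Activin A, was low in them (1.62 to 1.86 TPM), and in IM2 against IM1, a comparison added after the data were seen, *Stra8* was also higher (log2 fold change 5.52, edgeR adjusted p = 5.83e-09) and *Rec8* too (2.11, edgeR adjusted p = 5.79e-15). *Piwil2* was not called there (-0.78, edgeR adjusted p = 0.0011), nor was *Mov10l1*, whose direction turned (-0.59, edgeR adjusted p = 0.59). The part of any of these cells in the results was not tested.

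**Figure D3:**
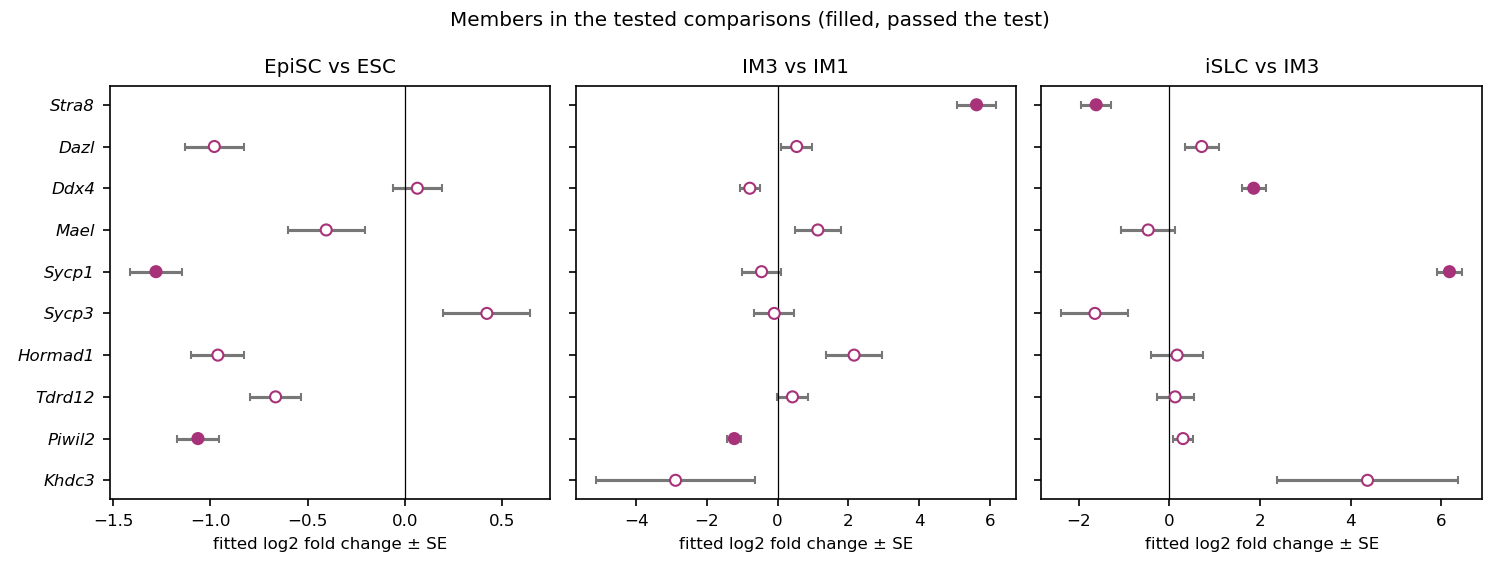
Fitted log2 fold changes with standard errors for EpiSC against ESC, IM3 against IM1 and iSLC against IM3, with filled points for genes that passed the test. Stra8 and Khdc3 have no point in the panel on the left, as they were picked on that contrast, and the filled points furthest from 0 are Sycp1 in iSLC (6.18) and Stra8 in IM3 (5.62).

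No member was called in the comparisons of Activin A and CHIR99021. Most members had few counts in IM2 to IM5, as *Khdc3* with 0 to 3 and *Hormad1* with 0 to 8 per library, so a change could be missed. *Khdc3*, for example, had a fitted log2 fold change of 3.16 (SE 2.27) in IM2 against IM3 and did not pass. In IM2 against IM3 (Activin A added) edgeR called 0 of 10 genes, with 7.24% of all genes called (4.19% higher, 3.05% lower), 3 members at an unadjusted p under 0.05 and 0 called by DESeq2. In IM5 against IM4 (Activin A added with CHIR99021 present) it called 0, with 8% of all genes called (4.99% higher, 3.01% lower), 2 members at an unadjusted p under 0.05 and 0 called by DESeq2. In IM4 against IM3 (CHIR99021 added) it called 0, with 0.173% of all genes called (0.0096% higher, 0.163% lower), 1 member at an unadjusted p under 0.05 and 0 called by DESeq2. In IM5 against IM2 (CHIR99021 added with Activin A present) it called 0, with 0.485% of all genes called (0.11% higher, 0.374% lower), 3 members at an unadjusted p under 0.05 and 0 called by DESeq2. The interaction of both agents called 0 members by either tool, with 0.0432% of all genes called and 0 members at an unadjusted p under 0.05.

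*Stra8* and *Piwil2* had the most counts of the members in IM2, IM3 and IM4. In IM5 *Piwil2* led, and *Ddx4* (69 counts summed) was above *Stra8* (61). The counts of *Piwil2* were 34, 46 and 28 in IM2, 34, 13 and 14 in IM3, 40, 40 and 34 in IM4 and 53, 44 and 44 in IM5. Its log2 fold change furthest from 0 among these comparisons was that of IM4 against IM3 (0.66, SE 0.222, edgeR adjusted p = 0.156), and it was not called in any. The counts of *Stra8* were 18, 34 and 39 in IM2, 22, 32 and 24 in IM4 and 13, 26 and 22 in IM5, and its TPM overlapped among IM2, IM3 and IM4. The IM5 libraries (0.28, 0.57 and 0.57 TPM) were all below those of IM4 (0.64 to 1.07 TPM) and at or below those of IM2 (0.57 to 1.05 TPM). The log2 fold change was -0.10 (SE 0.269) in IM2 against IM3, -0.20 (SE 0.276) in IM4 against IM3, -0.60 (SE 0.286) in IM5 against IM4 and -0.69 (SE 0.278) in IM5 against IM2, with edgeR adjusted p of 0.809, 0.854, 0.0913 and 0.132. The first 2 of these turned direction with an offset for effective gene length. Without IM5 replicate 1, *Hormad1* (6, 0 and 1 counts in IM5, 6, 5 and 8 in IM4) was called in IM5 against IM4.

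Among the 63 wider germline genes, 4 rose and 1 fell with Activin A in IM2 against IM3. These 5 of 63 are a share near the 7.24% of all genes called there. *Prdm14* rose by 2.40 on the log2 scale, but it was not called without IM2 replicate 1 (2.03), IM3 replicate 1 (2.22) or IM3 replicate 2 (2.17). *Tdrd7* rose by 1.32 and *Prdm1*, a repressor that starts germ cell specification, by 1.18. *Mov10l1* fell by 2.86 (0 to 7 counts in IM2). In IM5 against IM4, 2 rose and 2 fell, or 4 of 63, while 8% of all genes were called. *Tdrd7* rose by 1.20 and *Prdm1* by 1.04, and *Prdm1* fell short of the fold without IM4 replicate 2 (0.96) or IM5 replicate 3 (0.96). *Tdrd1* of the piRNA pathway fell (log2 fold change -1.253, 26 to 28 counts in IM4, 8 to 17 in IM5), and the meiotic cohesin *Smc1b* fell by 1.24 (21 to 54 and 12 to 23 counts). *Smc1b* was not called without IM5 replicate 2 (-0.98). In IM4 against IM3, in IM5 against IM2 and in the interaction, 0 of the 63 were called by edgeR or DESeq2, with 9, 11 and 1 at an unadjusted p under 0.05. The genes of red blood cells moved with Activin A as well, from 21.3 to 74.4 TPM in IM3 to 1.62 to 1.86 in IM2 and from 30.8 to 72.1 TPM in IM4 to 1.88 to 3.04 in IM5, and 6 of 6 fell in each. General pluripotency genes rose with it, 3 of 3 in each comparison (sums of 9.61 to 12.6 TPM in IM3, 44.3 to 47.3 in IM2, 10.8 to 13.2 in IM4 and 51.1 to 55.9 in IM5), as did early mesoderm genes, 2 of 4 in IM2 and 3 of 4 in IM5. Their part in these differences was not tested.

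The last comparison set iSLC against IM3, the cells from which they were made. Of the 10 genes 2 rose and 1 fell, while 18.6% of all genes rose and 15.1% fell (33.7% in either direction). *Sycp1* had 297, 266 and 281 counts in iSLC (2.22, 2.35 and 2.39 TPM) and 3, 4 and 1 in IM3 (0.16, 0.06 and 0.01 TPM). The groups were far apart, with a fitted log2 fold change of 6.18 (SE 0.276, edgeR adjusted p = 6.04e-17) and a ratio of normalized counts of 74.8 (95% counting interval 37.8 to 174). The member with the next highest level in iSLC was *Ddx4*, which rose by 1.86 (SE 0.261, edgeR adjusted p = 4.61e-07), from 23, 12 and 5 counts in IM3 (0.27, 0.20 and 0.08 TPM) to 71, 58 and 75 in iSLC (0.65, 0.63 and 0.78 TPM), which is under its level in M. *Stra8* fell by 1.62 (SE 0.325, edgeR adjusted p = 7.76e-05), to 13, 7 and 14 counts (0.25, 0.20 and 0.31 TPM), a ratio of 0.326 (95% counting interval 0.211 to 0.496). No library of the groups overlapped in any of these genes.

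Among the other genes, *Sycp3*, which lies beside *Sycp1* in the synaptonemal complex, had 4.83, 0 and 2.47 counts in iSLC and 3.91, 4.24 and 8.34 in IM3 (log2 fold change -1.65, SE 0.738, edgeR adjusted p = 0.0479). *Hormad1* (0.17, SE 0.578), *Tdrd12* (0.12, SE 0.406), *Piwil2* (0.30, SE 0.226), *Dazl* (0.71, SE 0.375) and *Mael* (-0.47, SE 0.6) did not pass, nor did *Khdc3*, whose 7 counts in 1 iSLC library stand against 0 in IM3. The level of *Sycp1* in iSLC was 49.5% of its EpiSC level in TPM, against 5.66% for *Ddx4* and at most 4.54% for the other members except *Stra8* (41.1%), whose EpiSC level was itself low.

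**Figure D4:**
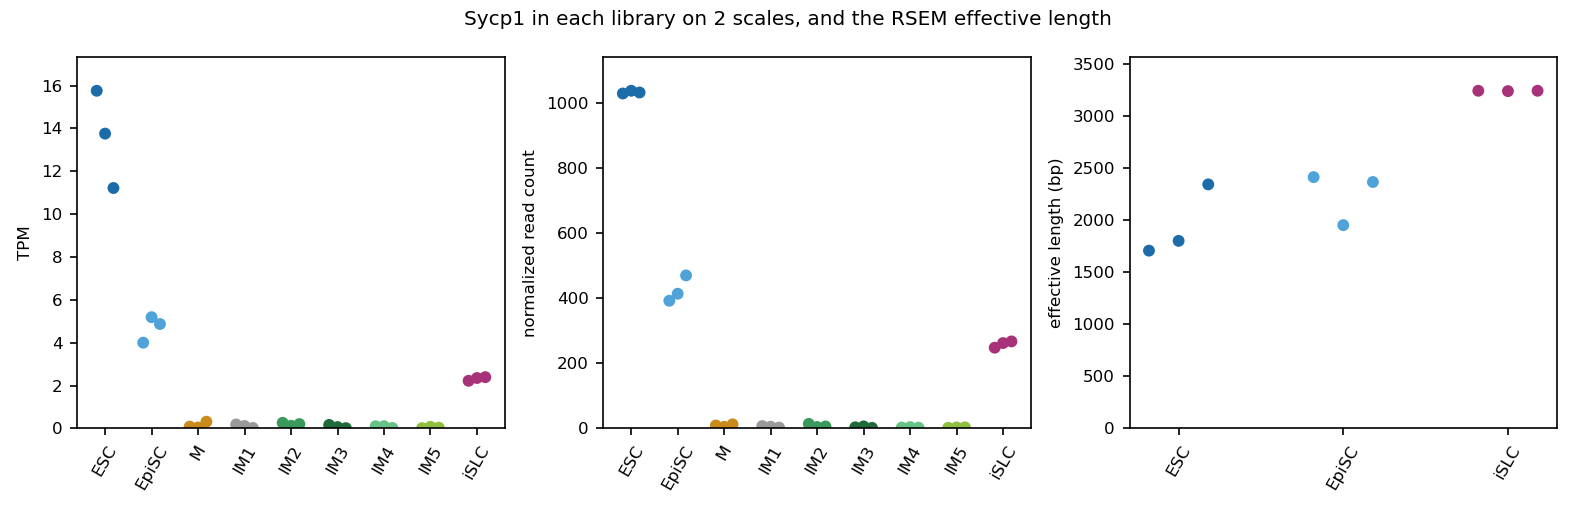
Sycp1 in each library as TPM, as normalized read count and, for ESC, EpiSC and iSLC, the effective length in bp that RSEM gave. iSLC libraries have 2.22 to 2.39 TPM and effective lengths of 3242 to 3245 bp, above the 1708 to 2345 bp of ESC.

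The effective length of *Sycp1*, RSEM's average over the transcripts to which it assigned reads, was 3242 to 3245 bp in iSLC, 1708 to 2345 bp in ESC and 1954 to 2415 bp in EpiSC. The iSLC libraries did not overlap with those of ESC and EpiSC, so RSEM weighted transcripts of other lengths there, and levels in TPM and in counts differ in their ratios between these groups. In IM3, at 1 to 4 counts per library, the effective length was 595, 3126 and 2955 bp. An IM5 library had 3246 bp, so long values were not particular to iSLC. With an offset for effective length the rise over IM3 was 5.51 (edgeR adjusted p = 1.31e-10). *Sycp1* lies on chromosome 3 (GRCm38, 102818499 to 102936100, minus strand), and no annotated exon of another gene overlaps its exons. Its nearest neighbours had means in IM3 and iSLC of 0.673 and 0.163 TPM (*Nr1h5*) and of 19.3 and 31.1 TPM (*Tspan2*).

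In the wider lists 7 of the 63 germline genes rose and 14 fell in iSLC, or 21 of 63 in all, a share near the 33.7% of all genes called in this comparison, with a median log2 fold change of -0.31. After *Sycp1*, the largest rises were those of *Tdrd9*, a helicase of the piRNA pathway, by 3.20 (24 to 28 counts in iSLC, 1 to 4 in IM3) and of *Gm960*, a recombination gene, by 2.08 (36 to 41 and 5 to 9 counts). *Asz1* of the piRNA pathway fell by 5.96 (0 to 1 counts in iSLC, 16 to 27 in IM3). *Mov10l1* fell by 3.13 (1 to 4 counts in iSLC), and *Prdm1* fell by 2.88 (1.03 ± 0.248 to 0.123 ± 0.0231 TPM). Of 14 tested genes of the synaptonemal complex and cohesin, 2 rose and 1 fell. Of the 11 genes of the polycomb complex, 3 fell and 0 rose, namely *L3mbtl2* (35.9 ± 0.724 to 10.96 ± 0.552 TPM), *E2f6* (64.5 to 31.1 mean TPM) and *Rybp* (89.0 to 43.97 mean TPM), while DESeq2 called 2. Retinoic acid response genes split, with 2 of 7 up and 4 down. No retinoic acid is listed for the Sertoli medium, and its part in these changes and in that of *Stra8* was not tested.

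Markers of other cells moved with these changes. Red blood cell genes went from 21.3 to 74.4 TPM in IM3 to 1.65 to 2.18 in iSLC, with 5 of 6 falling. Genes of 2-cell-like cells went from 0.00 TPM in each IM3 library to 0.44 to 0.62 in iSLC, with 2 of 6 rising, *Zscan4f* (10.7 to 19.2 counts) and *Zscan4d*, which are near-identical copies between which reads can be split. The sum of 6 oocyte genes went from 0.31 to 0.81 TPM to 1.47 to 2.02 TPM. Of the 3 tested, 1 rose, *Gdf9* (6 to 7 counts in IM3, 76 to 89 in iSLC), and 0 fell. The median log2 fold change over the 3 was -1.34, so the others leaned downward without being called. In every iSLC library 4 of the 6 had at most 3 counts. The spermatid sum went from 0.07 to 0.41 TPM to 0.71 to 0.99 TPM, with 6 of 7 genes at 3 counts or fewer in every iSLC library and *Spem1* rising. The primordial germ cell sum was lower in iSLC (5.25 to 5.99 TPM) than in IM3 (9.53 to 10.8 TPM), and 3 of its 6 genes fell. The part of these cells in the results was not tested. IM3 is shared by this comparison, by that with IM1 and by those with IM2 and IM4.

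The other 60 germline genes of the lists were set against the same contrast of early and later stages as the 10. Of the 41 with a mean of at least 1 TPM in ESC or EpiSC, 27 (65.9%) had every ESC and EpiSC library above every later library, against 14.2% of all genes at that level. The lists hold genes known from ESC cultures and were chosen with earlier results of these data known. Nothing is therefore read from this share, and no test is given. In the synaptonemal complex and cohesin list it was 8 of 9, among them *Hormad2* (12.3 TPM in its lowest early and 0.52 in its highest later library), *Syce1* (8.95 and 0.56 TPM) and *Tex11* (4.91 and 0.41 TPM). In the recombination list it was 5 of 8, with *Rec114*, a factor for DNA break formation, at 30.8 and 1.48 TPM. In the piRNA list it was 6 of 9, with *Fkbp6* at 3.91 and 0.23 TPM. In the meiotic entry list it was 2 of 5, *Meioc* and *Rec8*. Of the subcortical maternal complex, *Ooep* went the way of *Khdc3* (64.5 mean TPM in ESC, 11.5 in EpiSC and 0.303 in M), while *Tle6* had 20.3 and *Zbed3* 60.0 mean TPM in iSLC. The genes that did not separate included *Tdrd7* (3.70 mean TPM in ESC, 46.4 in IM1), *Psmc3ip* and *Prdm9*.

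Genes with the pattern most like that of *Stra8* and *Khdc3* were sought over the 27 libraries by Pearson's r of log2(TPM + 0.1), among 17564 other genes with a mean of at least 1 TPM in some group. As the libraries come from 9 groups, r mostly reflects the group levels. For *Stra8* the first 4 were *Gm5989* (r = 0.949), *4930444M15Rik* (0.929), *Tmem63c* (0.924) and *Gm15513* (0.922). *Gm5989*, the nearest, had 11.3 mean TPM in ESC, 0.153 in EpiSC, 0.00 in IM1 (0) and 0.14 in IM3. For *Khdc3* they were *Tktl2* (0.993), *Pdcl2* (0.992), *Gm16220* (0.991), *Olfr222* (0.991) and *Morc1* (0.989). *Morc1*, a gene of transposon silencing in the male germline, was the most abundant of these with 32.7 mean TPM in ESC, 4.27 in EpiSC and 0.143 in M. With log2(TPM + 1), 2 of the 5 genes nearest to *Stra8* and 3 of those nearest to *Khdc3* were again among the top 5.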

How the data were processed

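RNA-seq was analysed in 27 libraries of 9 groups, named as in the labels of the deposited samples. Per the paper's methods and the submitters' processing notes, the authors trimmed paired reads of 75 bp with Cutadapt 1.9.1, mapped reads with STAR 2.5.2a on GRCm38 and estimated gene levels with RSEM 1.3.0. Replicates were not pooled, and the strand setting is not given in the sources used here. Expected counts, as deposited, estimate the fragments of each gene and are not normalized between libraries. The deposited TPM values correct these for effective length and give all libraries the same sum, and the deposited FPKM values are scaled per length and library total. RSEM's shared assignment of reads makes counts of overlapping or near-identical genes less certain.

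Symbols, coordinates and exons came from GENCODE M21, on the same build, and matched 48349 genes (99.09%). Expected counts were rounded to whole numbers, filterByExpr kept 20839 genes, and edgeR 4.0.16 (R 4.3.3) was run with TMM, glmQLFit and glmQLFTest in 1 model with a coefficient per group. Genes were called at a Benjamini-Hochberg adjusted p of at most 0.01 over all genes tested and a fold of at least 2. Normalized counts were scaled to the mean effective library size. Intervals of count ratios are exact binomial at 95%, and they and the floor of 3 counts cover counting error only. The script was tested on simulated data. Replicates of a group differed by more than counting noise (chi-square per degree of freedom 3.63 to 53.8), and none was treated as a copy.

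The members and lists were chosen with earlier results of these data known. Named are the 10 members, the 3 largest called rises and falls over the germline lists in each comparison, the 5 genes most like *Stra8* and *Khdc3*, and others picked after their values were seen (neighbours, overlapping genes, markers, retinoic acid, polycomb and early-stage examples, *Gm4969*). The lists' Gcna and Spata22 were not matched, and some genes that the rule names are not reported here. Alternatives were DESeq2 1.42.0 as a test or for size factors, no low-count filter, an offset for effective length, only the groups compared, a minimum of 100 normalized reads, no fold minimum, an adjusted p of 0.05, a block for the replicate number, and leaving out single libraries. Promoters came from RefSeq. FPKM was used only as an alternative.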

Additional observations from a re-analysis of the deposited data

How the results depend on the processing

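All calls of *Sycp1*, *Piwil2*, *Stra8* and *Ddx4* in the 3 comparisons with called members kept their direction, and they were called under DESeq2 (Wald test or size factors), no low-count filter, the length offset, the replicate block, the fit of only the groups compared and each library left out. With a minimum of 100 normalized reads, 0 members were called in IM3 against IM1 and 1 (*Sycp1*) in iSLC against IM3, since the group means of the other members lie under it. Without a fold minimum, 5 members were called in EpiSC against ESC. At an adjusted p of 0.05, 1 member was called in IM2 against IM3 (*Sycp3*), 1 in IM5 against IM4 (*Hormad1*) and 1 in IM5 against IM2 (*Sycp1*), and 3 were called in IM3 against IM1 (*Hormad1* added) and 4 in iSLC against IM3 (*Sycp3* added). With IM2 in place of IM3, 1 member (*Stra8*) was called against IM1, and *Mov10l1* turned to -0.59. With single libraries left out, 2 to 4 members were called in IM3 against IM1 (4 without IM1 replicate 2) and 0 to 1 in IM5 against IM4 (1 without IM5 replicate 1), and in EpiSC against ESC 2 to 3. *Stra8*, not called in either comparison, turned in IM2 against IM3 with the length offset (0.16), without IM2 replicate 1 (0.17) and without IM3 replicate 3 (0.05), with a range of -0.35 to 0.17 over single libraries left out, and in IM4 against IM3 with the length offset (0.00, value 0.004035). The cause was not tested.

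Same-numbered libraries deviated together by correlations of at most 0.0994 in any pair, so the numbers were not taken to pair the samples. With the replicate block 2, 2 and 3 members were called in EpiSC against ESC, IM3 against IM1 and iSLC against IM3, and 0 in the other comparisons, as without it.

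Counts over all genes moved by more than 1.5 times under the following settings. The minimum of 100 reads gave 1682 genes in EpiSC against ESC, 1321 in IM3 against IM1, 792 in IM2 against IM3, 852 in IM5 against IM4, 21 in IM4 against IM3, 49 in IM5 against IM2 and 4011 in iSLC against IM3, where 3826, 2497, 1509, 1667, 36, 101 and 7015 were called, and no fold minimum gave 10325, 8609, 6324, 7668, 215, 879 and 13777. IM4 against IM3 gave 14 with only the groups compared, 66 at an adjusted p of 0.05, 57 with DESeq2, 21 without IM3 replicate 1 and 22 without IM4 replicate 1, and IM5 against IM2 gave 60 with only the groups compared. Of the 63 germline genes DESeq2 called 7 in IM5 against IM4, where edgeR called 4. The interaction (9 genes) gave 3 with only the groups compared, 4 with the length offset, 21 with no low-count filter, 16 at an adjusted p of 0.05, 18 with DESeq2, 38 with no fold minimum and 2 to 9 with single libraries left out. IM2 against IM1 gave 1405. The genes most like *Stra8* and *Khdc3* depend on the pseudocount and on the minimum level (1 and 2 of the 5 were kept with a mean of at least 5 TPM). In the IM conditions no member other than *Piwil2* had more than 42 counts in a library.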
